A study of Mus musculus with 12 samples.

Results

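Muscle of db/db mice that had received control virus alone was compared with muscle of mice that had received a virus against a target, whichever the target was. The comparison took in all 12 arrays of the series, the 3 from control animals against the other 9, with the 3 target groups weighted equally, and all 25206 probe sets of the deposited table. A gene was said to separate the groups when all 9 other arrays lay on one side of all 3 control arrays. The deepest differences were falls of interferon-induced genes, beside shallower falls and rises of other genes.

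The tissue was gastrocnemius, the large calf muscle, of BKS.Cg-Dock7m +/+ Leprdb/J mice aged 12 weeks. These animals have no working leptin receptor, and obesity and diabetes develop in them. Every animal, controls included, carried this genotype and received 4e+09 plaque-forming units of adenovirus coding for short hairpin RNA (shRNA), and was killed 1 week later. Control animals received 4e+09 units of control shRNA virus. LCN13 animals received 2e+09 units of LCN13 shRNA virus with 2e+09 of control virus, and TSC22D4 animals 2e+09 units of TSC22D4 shRNA virus with 2e+09 of control virus. TSC22D4+LCN13 animals received 2e+09 units of each target virus and 0 of control virus. All 3 target groups thus had a target virus and less control virus than controls, and these factors cannot be told apart. No uninjected animals were analysed here. Of 7 animals treated per group 3 were chosen by the submitters as representative, which may make the spread between arrays smaller than that between all treated animals.

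Type I interferon is released when cytosolic or endosomal sensors meet viral RNA or DNA. It binds the IFNAR receptor and activates transcription factors, among them STAT2, which with IRF9 is part of the complex that binds interferon-stimulated response elements in promoters of target genes. Those genes code for sensors, for further transcription factors such as IRF7, which amplifies the response, and for effectors that bind viral RNA, deplete nucleotides or tag proteins with the ubiquitin-like ISG15. Adenovirus vectors are known to set off this response in mice.

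The letters of the response element stood in the promoters of some of the genes that fell most and were absent from those of others. The motif GAAA, then any 2 bases, then GAAA was searched on both strands in RefSeq windows of build GRCm38.p6 that run from 250 bases before to 50 after a gene's start. It was found for 21 of 45 (46.7%) interferon list genes that fell and had a window, 17 of 52 (32.7%) interferon list genes that were not called, and 678 of 17452 (3.88%) of all genes tested. Outside the interferon lists it was found for 9 of 111 (8.11%) genes that fell and 6 of 91 (6.59%) that rose. Among 32 interferon list genes selected for naming, all called and without overlap, 10 had a match, 14 had a window without a match and 8 had no window. Irf7, Cmpk2, Oasl2, Ifit2, Herc6 and Rnf213, all with large falls, held no match. A match is a description of the letters and not evidence of binding. The 250 bases before the start are given for 3 genes with large falls and a match there, and for Irf7, which had the largest fall among named interferon genes with a window and no match. Capitals mark the matches, which read TTTC, any 2 bases and TTTC on the strand given.
Ifit1 (chr19:34640639-34640888, plus strand): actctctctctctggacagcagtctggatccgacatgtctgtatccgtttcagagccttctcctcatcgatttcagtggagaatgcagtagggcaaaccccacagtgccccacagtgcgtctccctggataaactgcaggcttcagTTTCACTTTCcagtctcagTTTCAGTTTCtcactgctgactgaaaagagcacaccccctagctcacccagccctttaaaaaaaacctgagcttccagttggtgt
Rsad2 (chr12:26456453-26456702, minus strand): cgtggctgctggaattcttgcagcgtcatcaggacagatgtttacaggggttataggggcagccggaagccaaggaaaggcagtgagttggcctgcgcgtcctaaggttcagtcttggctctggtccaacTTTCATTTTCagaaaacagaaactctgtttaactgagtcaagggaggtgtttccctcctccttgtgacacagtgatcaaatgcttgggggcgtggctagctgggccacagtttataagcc
Trim30a (chr7:104465194-104465443, minus strand): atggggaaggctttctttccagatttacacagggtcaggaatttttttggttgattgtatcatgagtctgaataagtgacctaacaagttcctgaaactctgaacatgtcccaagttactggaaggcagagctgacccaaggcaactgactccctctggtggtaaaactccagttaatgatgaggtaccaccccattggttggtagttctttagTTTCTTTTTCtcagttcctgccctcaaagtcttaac
Irf7 (chr7:141266425-141266674, minus strand): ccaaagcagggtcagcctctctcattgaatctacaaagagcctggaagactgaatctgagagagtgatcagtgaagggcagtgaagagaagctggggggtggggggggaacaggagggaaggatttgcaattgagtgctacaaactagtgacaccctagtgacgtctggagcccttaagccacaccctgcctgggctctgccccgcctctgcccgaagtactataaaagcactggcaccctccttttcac
Ifit1 held 2 matches 9 bases apart, and Rsad2 and Trim30a 1 each. Ddx58 and Ifih1 also held a match in the window, after the start.

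The targeted transcripts were examined first. Tsc22d4 measured 6.54, 6.43 and 6.79 on the log2 scale in control animals 18, 19 and 20, 6.81, 7.00 and 6.62 in LCN13 arrays, 6.87, 6.86 and 6.75 in TSC22D4 arrays and 7.01, 6.72 and 6.71 in TSC22D4+LCN13 arrays. The groups overlapped, and the arrays labelled for TSC22D4 virus were not the lowest (target groups minus control 0.23, SE 0.0985, limma adjusted p = 0.355). Obp2a (formerly Lcn13) had values from 4.90 to 4.97 on all 12 arrays, close to the lowest value of any probe set, 4.78, so that its knockdown could not be read. The groups are therefore named by their labels.

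The arrays were alike in most respects. Pairwise correlations lay between 0.990 and 0.998 over probe sets, and normalization had made the distributions equal, so a shift of most transcripts one way would not be visible. Mean levels of 18 skeletal muscle fibre markers were even across arrays, with scores between -0.08 and 0.06, a score being the mean deviation of the list's members from their 12-array means. Connective tissue markers were not even. The fibroblast score was -0.70, -0.24 and -0.38 in control animals 18, 19 and 20 and between -0.23 and 0.63 in the other 9 arrays, so that the groups did not overlap by a narrow margin. The tendon score was -0.89, 0.08 and -1.03 in controls and between -0.36 and 0.51 in the others, so that control animals 18 and 20 stood apart from control animal 19 and from the 9. This score was taken over 10 markers. Where a tendon score is a covariate below, it was taken over 6 of them, Tnmd, Scx, Fmod, Comp, Cilp2 and Chad. That score was -0.95, 0.11 and -1.06 in controls. Hepatocyte markers were highest in LCN13 animal 22 (0.83) and TSC22D4+LCN13 animal 30 (0.47), and macrophage markers in TSC22D4+LCN13 animal 30 (0.56). In bulk RNA, fewer cells of a type and less RNA per cell cannot be told apart.

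**Figure D1:**
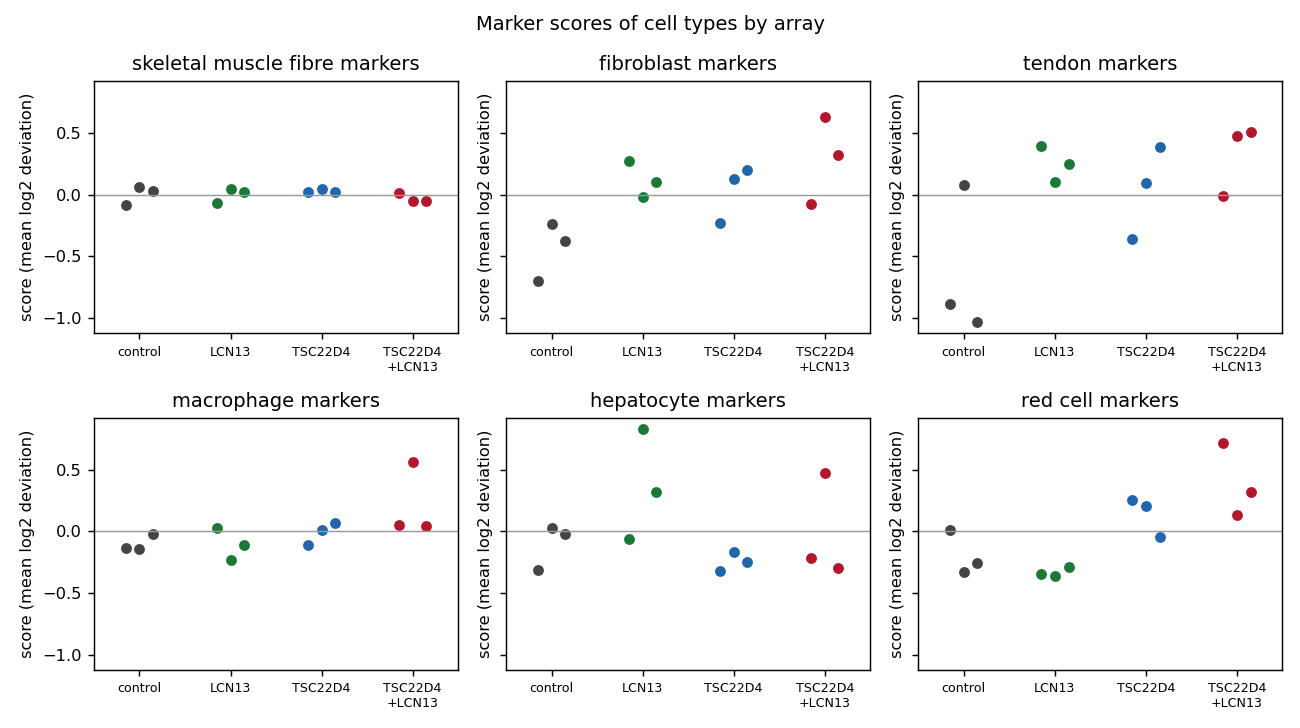
Marker scores of 6 cell types (mean log2 deviation of the members from their 12-array means) for each array, by group, with 1 point per animal. Fibre markers lay near 0 on every array, fibroblast markers were lower in the 3 control arrays than in the other 9, and tendon markers were low in control animals 18 and 20.

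Across all probe sets, 349 (1.38%) differed between control and the target groups at an adjusted p below 0.05 (limma, Benjamini-Hochberg over 25206 probe sets). Of these, 226 (0.897%) fell and 123 (0.488%) rose. Falls were deeper than rises: 28 probe sets (0.111%) fell by over 2-fold and 1 (0.00397%) rose by over 2-fold. Control arrays stood above all 9 others for 448 probe sets (1.78%) and below them for 316 (1.25%), and 193 (0.766%) and 95 (0.377%) of the probe sets were both apart in this way and called. With a gap of at least 0.2 between the nearest arrays, 63 (0.25%) remained apart with the others lower and 18 (0.0714%) with the others higher. The number called was sensitive to single arrays: it was 158, 229 and 89 without control animal 18, 19 or 20, 210 without LCN13 animal 23, and 189 and 196 without TSC22D4 animal 26 or 27.

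The interferon system made up most of the deep falls. Over 5 lists of sensing, signalling, effector, ISG15 and GTPase genes, 121 genes were measured, of which 59 fell, 0 rose (limma, 2 above control at an unadjusted p under 0.05) and 62 were not called. The median difference over the 121 was -0.38 on the log2 scale, against -0.0017 over all probe sets. All 9 other arrays lay below all controls for 65 of the 121, and above them for 1, Ifi27, a small mitochondrial interferon-induced protein. Over all probe sets 0.897% fell, 1.78% lay apart with the others lower and 1.25% with the others higher. Of the 28 falls over 2-fold, 23 belonged to these lists. The other 5 were H2-T24, Ddit4, Ifi203 (named after its values were seen), a predicted gene and a probe set with no single symbol. The median fall of the 59 was 0.81, and the smallest 0.13. The lists were chosen with results of these arrays known and are no independent evidence of direction.

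**Figure D2:**
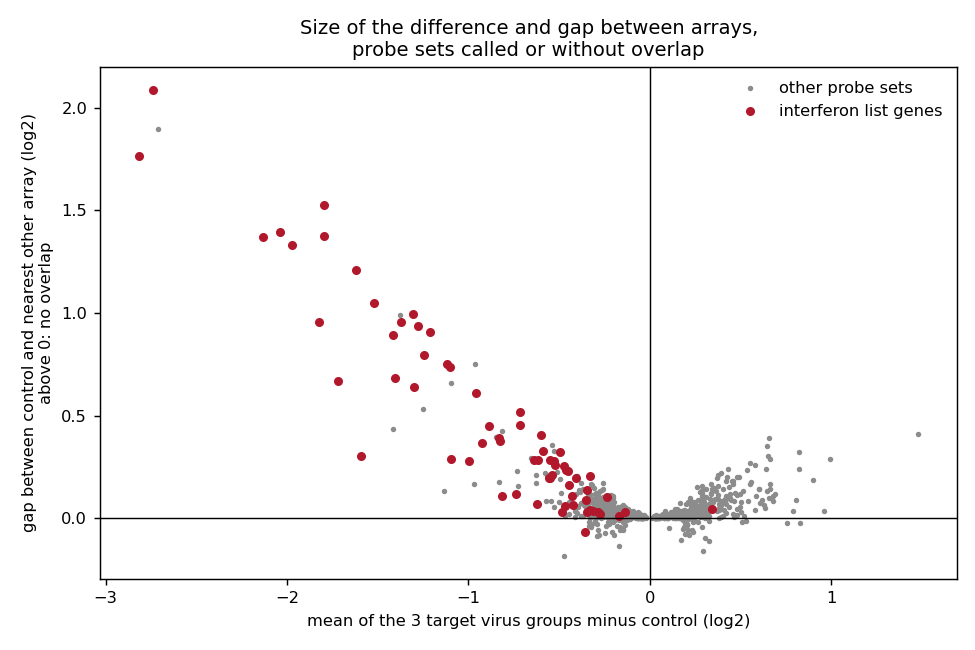
Difference between target groups and control (x axis, log2) against the gap between control and the nearest other array (y axis, log2, above 0 where the groups do not overlap) for probe sets that were called or did not overlap, with genes of the 5 interferon lists in red. The widest gap, 2.09, belonged to Irf7, while the widest gap among rises was 0.41.

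Some sensors of foreign nucleic acid fell. Of 20 measured genes of interferon production and sensing, 7 fell, 0 rose and 13 were not called, where 0.897% of all probe sets fell. Apart below control lay 9, against 1.78% of all probe sets, and the median difference was -0.06. Irf7, the transcription factor that amplifies interferon production, measured 9.87, 9.93 and 10.33 in control animals 18, 19 and 20, and the 9 other arrays lay between 6.87 and 7.79 with a median of 7.28. No other array came within 2.09 of the lowest control, the widest gap of any probe set. Irf7 fell by 2.74 on the log2 scale, or 6.67-fold (SE 0.16, limma adjusted p = 4.09e-05). Its difference from control was -2.58 with LCN13, -2.65 with TSC22D4 and -2.99 with both viruses, 3 values that share the control arrays.

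The cytosolic RNA sensors Ifih1 (MDA5), Ddx58 (RIG-I) and Dhx58 (LGP2) fell together. Ifih1 measured 8.15, 8.01 and 8.43 in controls and lay between 6.58 and 7.05 with a median of 6.81 elsewhere (-1.37, SE 0.0825, limma adjusted p = 4.78e-05). Ddx58 measured 8.65, 8.29 and 8.99 in controls and lay between 6.96 and 7.40 with a median of 7.28 elsewhere (-1.41, SE 0.126, limma adjusted p = 0.000667). All 9 arrays were below all controls for both, with gaps of 0.96 and 0.89. Dhx58 fell by 0.96 (SE 0.076, limma adjusted p = 0.000316), and Zbp1, which recognises Z-form nucleic acid, by 1.10 (SE 0.0911, limma adjusted p = 0.000433). Ifi204, of a DNA-sensing family, was more variable, with 7.64, 6.44 and 7.26 in controls and between 5.03 and 6.14 with a median of 5.51 elsewhere (-1.59, SE 0.218, limma adjusted p = 0.00924). The groups did not overlap, but the call was lost without control animal 20 (limma adjusted p = 0.0701). The difference of Ifi204 was -1.08 (adjusted p = 0.281) with the tendon score as a covariate, -1.35 (adjusted p = 0.2) with the fibroblast score and -0.92 (adjusted p = 0.264) with control animal 19 as the lone control. It measured 5.15, 5.03 and 5.43 in LCN13 arrays and 5.90, 6.14 and 5.55 in TSC22D4+LCN13 arrays, and the moderated F test among target groups did not call it (adjusted p = 0.351).

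A part of the signalling genes fell. Of 19 measured genes of receptor, JAK-STAT and IRF function, 3 fell (15.8%), Stat2, Irf9 and Usp18, and 0 rose. Over all probe sets 0.897% fell. In limma, 7 of the 19 had an unadjusted p under 0.05. Stat2 measured 7.63, 7.46 and 7.83 in controls and lay between 6.32 and 6.71 with a median of 6.50 in the others, a fall of 1.12 (SE 0.0699, limma adjusted p = 6.21e-05). Irf9, which joins STAT2 in the complex that binds the response element, fell by 0.44 (SE 0.0646, limma adjusted p = 0.013) with a gap of 0.16. Usp18, which removes ISG15 and restrains the receptor, measured 8.70, 7.40 and 8.25 in controls, with control animal 19 the lowest, and lay between 6.17 and 6.45 with a median of 6.29 elsewhere (-1.82, SE 0.205, limma adjusted p = 0.00298). The receptor chains Ifnar1 and Ifnar2, named after their values were seen, differed from control by 0.01 (adjusted p = 0.975) and 0.16 (adjusted p = 0.594) and overlapped it.

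Antiviral effectors fell often. Of 62 measured, 39 fell and 0 rose, where 0.897% of all probe sets fell. Apart below control lay 42, against 1.78% of all probe sets, and the median difference was -0.47. Ifit1, which binds foreign RNA at its 5′ end, measured 9.88, 9.31 and 9.66 in controls, 7.04, 7.06 and 7.54 in LCN13 arrays, 6.50, 6.77 and 6.68 in TSC22D4 arrays and 6.73, 6.50 and 6.35 in TSC22D4+LCN13 arrays. The LCN13 arrays were the highest of the 9 and still 1.76 below the lowest control. Ifit1 fell by 2.82, or 7.05-fold (SE 0.143, limma adjusted p = 1.92e-05). Its relative Ifit2 measured 7.53, 7.44 and 8.02 in controls and lay between 5.63 and 6.06 with a median of 5.91 elsewhere (-1.80, SE 0.118, limma adjusted p = 8.41e-05).

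Oas2 belongs to the enzymes that make the oligoadenylates that activate RNase L, and Oasl2 is a related protein. Oasl2 measured 9.03, 8.84 and 9.24 in controls and between 6.46 and 7.45 with a median of 6.93 elsewhere (-2.04, SE 0.102, limma adjusted p = 1.92e-05). Oas2 measured 8.38, 7.84 and 8.68 in controls and between 6.03 and 6.51 with a median of 6.41 elsewhere (-1.97, SE 0.134, limma adjusted p = 0.000107). All 9 arrays lay below the controls, with gaps of 1.39 and 1.33. Oasl1, close to the lower range of the array, fell by 0.64 (SE 0.102, limma adjusted p = 0.0203). Near-identical members of the Oas, Ifi200, guanylate-binding and H2 families can share probe sequence, so that their values are uncertain for the single gene.

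The nucleotide kinase Cmpk2 and the radical SAM enzyme Rsad2 (viperin), which makes a chain-terminating nucleotide, fell by 2.13 (SE 0.139, limma adjusted p = 8.28e-05) and 1.72 (SE 0.226, limma adjusted p = 0.00766). Cmpk2 measured 9.46, 8.77 and 9.37 in controls and lay between 6.86 and 7.40 with a median of 7.05 elsewhere. Rsad2 measured 10.57, 9.67 and 10.61 in controls and lay between 8.01 and 9.00 with a median of 8.66 elsewhere. Control animal 19 was the lowest of the 3 controls for both, and without control animal 20 the call of Rsad2 was lost (adjusted p = 0.0588).

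Other effectors fell as well. Rnf213, a large ubiquitin ligase, fell by 1.62 (SE 0.0927, limma adjusted p = 4.09e-05), with 9.45, 9.57 and 9.80 in controls and a range of 7.69 to 8.24 with a median of 7.995 elsewhere. Phf11d fell by 1.52 (SE 0.107, limma adjusted p = 0.000134) and Trim30a, a TRIM family regulator of inflammatory signalling, by 1.41 (SE 0.148, limma adjusted p = 0.00192). The ADP-ribosyltransferases Parp14 and Parp12 both fell by 1.30 (SE 0.0749 and 0.134, limma adjusted p = 4.09e-05 and 0.00181). Parp14 measured 8.40, 8.35 and 8.48 in controls and lay between 6.96 and 7.35 with a median of 7.06 elsewhere. Xaf1, a pro-apoptotic interferon target, measured 10.22, 10.24 and 10.29 in controls and lay between 8.64 and 9.28 with a median of 8.96 elsewhere (-1.28, SE 0.108, limma adjusted p = 0.000485). Znfx1, an RNA-binding helicase-like protein, fell by less, 0.97, with a smaller error (SE 0.0431, limma adjusted p = 9.51e-06), and Samd9l by 0.41 (SE 0.0607, limma adjusted p = 0.0141).

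Most measured genes of the ISG15 pathway fell. Of 8 measured genes of ISG15 conjugation and the Parp9 complex, 6 fell, where 0.897% of all probe sets fell. Apart below control lay 7, against 1.78% of all probe sets, and the median difference was -0.73. Herc6, the main ligase that attaches ISG15 in mice, had the smallest adjusted p of any probe set. It measured 8.60, 8.42 and 8.73 in controls, 6.77, 6.87 and 6.90 in LCN13 arrays, 6.73, 6.82 and 6.87 in TSC22D4 arrays and 6.75, 6.78 and 6.64 in TSC22D4+LCN13 arrays, so that the 9 other arrays spanned 0.25 and lay 1.53 below the lowest control (-1.80, SE 0.0604, limma adjusted p = 1.91e-06). Dtx3l and its partner Parp9 fell by 0.83 (SE 0.086, limma adjusted p = 0.00182) and 0.47 (SE 0.0673, limma adjusted p = 0.0117). The probe set of Isg15 itself, named after its values were seen, lay low on the array, with 5.10, 5.10 and 5.15 in controls and between 4.92 and 5.07 with a median of 4.97 elsewhere (-0.13, SE 0.0246, limma adjusted p = 0.0338), and was called in 3 of 12 fits that left out 1 array.

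**Figure D3:**
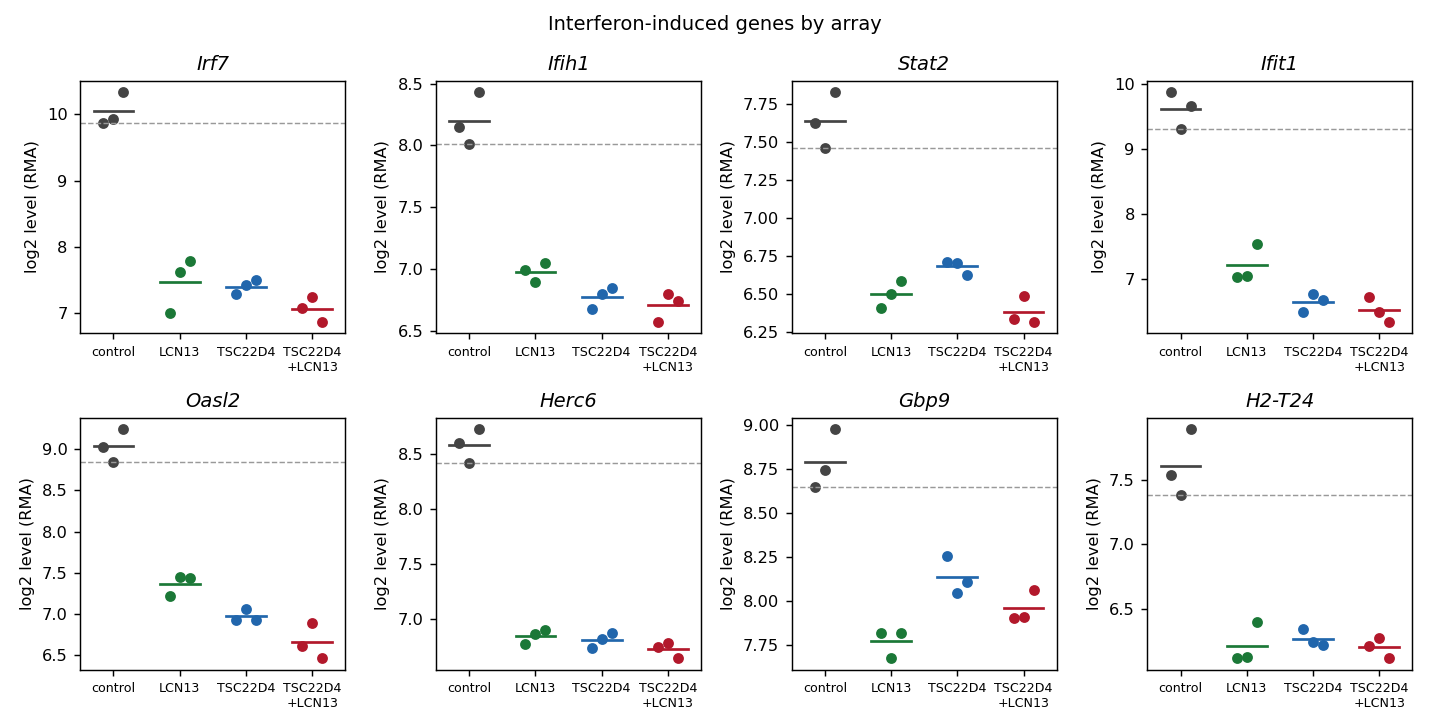
Log2 levels of 8 interferon-induced or antigen-presenting genes on each array, with 1 point per animal, a bar at each group mean and a dashed line at the lowest control array. All 9 target virus arrays lay below the line for each gene, and for Gbp9 the LCN13 arrays were the lowest while for Ifit1 and Oasl2 they were the highest of the 9.

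Interferon-inducible GTPases, which coat vacuoles of intracellular microbes, fell in part. Of 14 measured, 5 fell and 0 rose, where 0.897% of all probe sets fell, and the median difference was -0.43. Gbp9 measured 8.65, 8.74 and 8.98 in controls, 7.82, 7.68 and 7.82 in LCN13 arrays, 8.26, 8.05 and 8.11 in TSC22D4 arrays and 7.91, 7.91 and 8.07 in TSC22D4+LCN13 arrays (-0.83, SE 0.0723, limma adjusted p = 0.000556). Gbp7 fell by 0.62 (SE 0.0952, limma adjusted p = 0.0165), Gbp5 by 0.43 (SE 0.0806, limma adjusted p = 0.0364) and Ifi47 by 0.81 (SE 0.151, limma adjusted p = 0.0338). For Gbp9, Gbp7 and Gbp5 the LCN13 arrays lay below all TSC22D4 arrays, but the moderated F test among target groups called none of the 3 (adjusted p = 0.114, 0.107 and 0.0739). The calls of Gbp5 and Ifi47 held in 3 of 12 and 5 of 12 fits that left out 1 array.

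Some regulators and class I genes of antigen presentation fell. Of 23 measured genes, 5 fell, H2-T24, H2-T22, Tap1, Nlrc5 and H2-M3, and 0 rose, with a median of -0.22. Over all probe sets 0.897% fell. H2-T24, a non-classical class I gene, measured 7.53, 7.38 and 7.89 in controls and lay between 6.12 and 6.39 with a median of 6.22 elsewhere (-1.38, SE 0.0979, limma adjusted p = 0.000136). Nlrc5, the transactivator of class I genes, fell by 0.40 (SE 0.0428, limma adjusted p = 0.00213), the peptide transporter subunit Tap1 by 0.48 (SE 0.0874, limma adjusted p = 0.0327) and H2-M3 by 0.11 (SE 0.0206, limma adjusted p = 0.0327). Nlrc5 was called in 12 of 12 fits without 1 array, Tap1 in 3 of 12 and H2-M3 in 5 of 12. B2m, the shared class I light chain, named after its values were seen, differed by -0.02 (adjusted p = 0.962).

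No call was made among inflammatory genes outside the interferon lists, but the lists are short for a background of 1.38% of all probe sets called, so that the counts say little about them. Of 21 chemokines and cytokines, 0 passed in limma (4 at an unadjusted p under 0.05), with a median of -0.01, and of 14 complement and acute phase genes, 0 passed (3 at an unadjusted p under 0.05). Cxcl10, an interferon-induced chemokine named after its values were seen, lay between 5.25 and 5.84 on all arrays (0.10, adjusted p = 0.678). Markers of T and NK cells (15 genes), B cells (8), neutrophils (13), dendritic cells (12) and macrophages (14) had 0 called members in limma, with 2, 0, 0, 2 and 5 at an unadjusted p under 0.05. In the same order, 13, 7, 11, 6 and 1 of these markers had a mean below the array median of 5.45. The T and NK cell, B cell and neutrophil lists thus lay mostly near the floor, where a change could hardly be seen.

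The depth of the interferon falls was examined against the uneven connective tissue markers by refitting with their scores and with 1 control array. With the tendon score as a covariate the median difference of the 59 genes was -0.65, with the fibroblast score -0.80, and all 59 stayed below 0, while 19 and 26 of them were called. The 59 were chosen as called falls on these same arrays, so that their sign was likely to hold. All 167 other falls and all 123 rises kept their sign with either score too. The fibroblast score itself separated control from the other arrays, so a fit with it cannot tell composition from group. With control animal 19, whose tendon score was near that of the other arrays, as the lone control, the median was -0.58, all 59 were below 0 and 22 were called (its spread was assumed equal to that of the other groups). Irf7, Ifih1, Dhx58, Zbp1, Stat2, Ifit1, Ifit2, Oasl2, Oas2, Cmpk2, Rnf213, Parp14, Phf11d, Znfx1, Herc6 and H2-T24 were called under each of these settings and in all 12 fits that left out 1 array.

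Falls outside the interferon lists were shallower. They numbered 167 probe sets, with a median of 0.28. Ddit4, which restrains mTORC1 under stress, measured 8.11, 8.41 and 8.19 in controls, 6.53, 6.37 and 6.88 in LCN13 arrays, 5.96, 6.66 and 7.68 in TSC22D4 arrays and 7.27, 7.21 and 6.85 in TSC22D4+LCN13 arrays. The groups did not overlap, but the TSC22D4 arrays alone spanned 1.72, and the fall of 1.41 (SE 0.286, limma adjusted p = 0.0482) was called in 2 of 12 fits without 1 array. Klf15, a glucocorticoid-induced regulator of muscle amino acid use, measured 7.61, 7.65 and 7.67 in controls and lay between 6.70 and 7.38 with a median of 7.13 elsewhere (-0.51, SE 0.0852, limma adjusted p = 0.0244). Cebpd fell by 0.44 (SE 0.0773, limma adjusted p = 0.0285). These 3 were the called members of a list of 25 glucocorticoid targets, whose median was -0.23, and 0 of the list rose. Over all probe sets 0.897% fell. The calls of Klf15 and Cebpd held in 8 of 12 and 6 of 12 fits without 1 array.

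Single members of other lists fell, though 1 call in a short list says little beside the 0.897% of all probe sets that fell. The autophagy kinase Ulk1 fell by 0.34 (SE 0.0529, limma adjusted p = 0.0177), 1 of 22 autophagy and lysosome genes to fall. The proteasome subunit Psmd1 fell by 0.15 (SE 0.0187, limma adjusted p = 0.00636), 1 of 27, and lay between 11.19 and 11.22 in controls against 10.99 to 11.12 elsewhere. The muscle cadherin Cdh15 fell by 0.23 (SE 0.0404, limma adjusted p = 0.0287), 1 of 14 myogenic genes, and was called in 5 of 12 fits without 1 array. Mylip, a ubiquitin ligase for lipoprotein receptors, fell by 0.40 (SE 0.0556, limma adjusted p = 0.0105), and in LCN13 arrays it was lowest, at 8.44, 8.62 and 8.71, against 9.22, 9.24 and 9.28 in controls. Of 21 genes of insulin signalling and glucose uptake 0 were called in limma (6 at an unadjusted p under 0.05), and of 24 FoxO and atrophy genes 1 fell (Klf15). With 1.38% of all probe sets called, these counts say little about such short lists.

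The 123 rises had a median of 0.30, and the largest, and the only one over 2-fold, was AF357425, a small nucleolar RNA gene. It measured 6.51, 7.21 and 6.74 in controls and lay between 7.62 and 8.93 with a median of 8.27 elsewhere (1.48, SE 0.218, limma adjusted p = 0.0131). Tceal7 measured 6.49, 6.09 and 6.07 in controls, 7.15, 7.04 and 7.01 in LCN13 arrays, 6.80, 7.34 and 6.78 in TSC22D4 arrays and 7.39, 7.46 and 7.95 in TSC22D4+LCN13 arrays. The last were the highest, and the rise was 0.99 (SE 0.154, limma adjusted p = 0.017). Anxa5, a phospholipid-binding annexin, measured 10.34, 10.16 and 10.10 in controls and lay between 10.67 and 11.36 with a median of 11.004 elsewhere (0.82, SE 0.0967, limma adjusted p = 0.00393), a gap of 0.32.

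Some matrix genes rose. Of 30 extracellular matrix genes 2 rose, Col14a1 and Timp1, and 28 were above 0, with a median of 0.46. Over all probe sets 0.488% rose. Col14a1, a fibril-associated collagen, measured 6.22, 5.91 and 6.32 in controls and lay between 6.40 and 7.14 with a median of 6.83 elsewhere (0.61, SE 0.108, limma adjusted p = 0.0302). Timp1, an inhibitor of matrix metalloproteinases, rose by 0.31 (SE 0.052, limma adjusted p = 0.0267) but overlapped control. Islr rose by 0.65 (SE 0.103, limma adjusted p = 0.0186), Olfml2b by 0.79 (SE 0.153, limma adjusted p = 0.041) and Sdc2, a heparan sulphate proteoglycan, by 0.64 (SE 0.111, limma adjusted p = 0.028). Fibroblast and tendon markers, some of which, such as Col1a1 and Thbs4, are also in the matrix list, were mostly above 0 as well. Of the fibroblast markers 10 of 11 were above 0 (median 0.55, 0 called in limma, 9 at an unadjusted p under 0.05). Of the tendon markers 10 of 10 were above 0 (median 0.59, 0 called in limma, 8 at an unadjusted p under 0.05). Col1a1 and Tnmd, named after their values were seen, differed by 1.34 (adjusted p = 0.139) and 1.49 (adjusted p = 0.0698), with control animals 18 and 20 the lowest of the 12 arrays for both. With the tendon score as a covariate Olfml2b differed by 0.31 (adjusted p = 0.542), Timp1 by 0.17 (adjusted p = 0.471), Islr by 0.58 (adjusted p = 0.374), Col14a1 by 0.67 (adjusted p = 0.319) and Sdc2 by 0.82 (adjusted p = 0.187). With the fibroblast score the values were 0.26 (adjusted p = 0.412), 0.18 (adjusted p = 0.36), 0.41 (adjusted p = 0.306), 0.44 (adjusted p = 0.362) and 0.58 (adjusted p = 0.285) in the same order. Leaving out 1 array kept the call of Col14a1 in 6 of 12 fits, of Olfml2b in 3 of 12, of Sdc2 in 7 of 12, of Timp1 in 9 of 12 and of Islr in 9 of 12.

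Of 12 COPI coat genes, which carry vesicles from Golgi to endoplasmic reticulum, 3 rose, where 0.488% of all probe sets rose. Copz2 measured 9.04, 9.15 and 9.12 in controls, 9.39, 9.38 and 9.31 in LCN13 arrays, 9.33, 9.40 and 9.45 in TSC22D4 arrays and 9.71, 9.69 and 9.66 in TSC22D4+LCN13 arrays (0.38, SE 0.0324, limma adjusted p = 0.000522). Copz1 and Copg2 rose by 0.30 (SE 0.0563, limma adjusted p = 0.0378) and 0.29 (SE 0.0546, limma adjusted p = 0.0347) and were called in 3 of 12 and 5 of 12 fits without 1 array. Some single genes with a role in the endoplasmic reticulum or Golgi, picked from the called rises and in no list examined, also rose. Of 19 measured genes of the unfolded protein and integrated stress response 0 were called in limma (2 at an unadjusted p under 0.05). Yif1b, of vesicle traffic between endoplasmic reticulum and Golgi, lay at 10.24, 10.25 and 10.26 in controls and between 10.37 and 10.73 with a median of 10.51 elsewhere (0.29, SE 0.0297, limma adjusted p = 0.00171). In the endoplasmic reticulum, the vitamin K-dependent carboxylase Ggcx rose by 0.49 (SE 0.0493, limma adjusted p = 0.00162), the peroxidase Gpx8 by 0.68 (SE 0.0828, limma adjusted p = 0.00482) and Fkbp14, a prolyl isomerase of collagen folding, by 0.65 (SE 0.0993, limma adjusted p = 0.0162). Srd5a3, of dolichol synthesis for protein glycosylation, rose by 0.58 (SE 0.0826, limma adjusted p = 0.0109). The calls of Copz1, Copg2, Yif1b, Ggcx, Gpx8 and Fkbp14 were lost with the tendon score and with the fibroblast score as a covariate. Copz2 differed by 0.32 with either score. It was called with the fibroblast score (limma adjusted p = 0.0417) and not with the tendon score (limma adjusted p = 0.0583). Its call was also lost with 2 groups in place of 4.

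Other named rises were of single genes. Ppt1, a lysosomal thioesterase, measured 9.46, 9.48 and 9.43 in controls, 9.84, 9.77 and 9.67 in LCN13 arrays, 9.90, 9.94 and 9.93 in TSC22D4 arrays and 9.99, 9.94 and 9.94 in TSC22D4+LCN13 arrays (0.42, SE 0.0319, limma adjusted p = 0.000205). Nceh1, a cholesterol ester hydrolase, rose by 0.54 (SE 0.0737, limma adjusted p = 0.00902) and Erg28, of sterol synthesis, by 0.66 (SE 0.105, limma adjusted p = 0.0196). Mrps18b was the 1 of 27 mitochondrial ribosome genes to rise (0.37, SE 0.0406, limma adjusted p = 0.00268), where 0.488% of all probe sets rose. Casq2, a calcium store protein of the sarcoplasmic reticulum, measured 10.11, 10.10 and 10.07 in controls and lay between 10.38 and 10.85 with a median of 10.71 elsewhere (0.55, SE 0.112, limma adjusted p = 0.0483), and was called in 2 of 12 fits without 1 array. Actc1, the cardiac actin of developing muscle, rose by 0.83 (SE 0.142, limma adjusted p = 0.0269) and overlapped control (called in 8 of 12 fits without 1 array). Id2, an inhibitor of helix-loop-helix factors, rose by 0.66 (SE 0.109, limma adjusted p = 0.023), Gamt, of creatine synthesis, by 0.64 (SE 0.103, limma adjusted p = 0.0204), and Tmem47 by 0.54 (SE 0.0658, limma adjusted p = 0.00482).

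**Figure D4:**
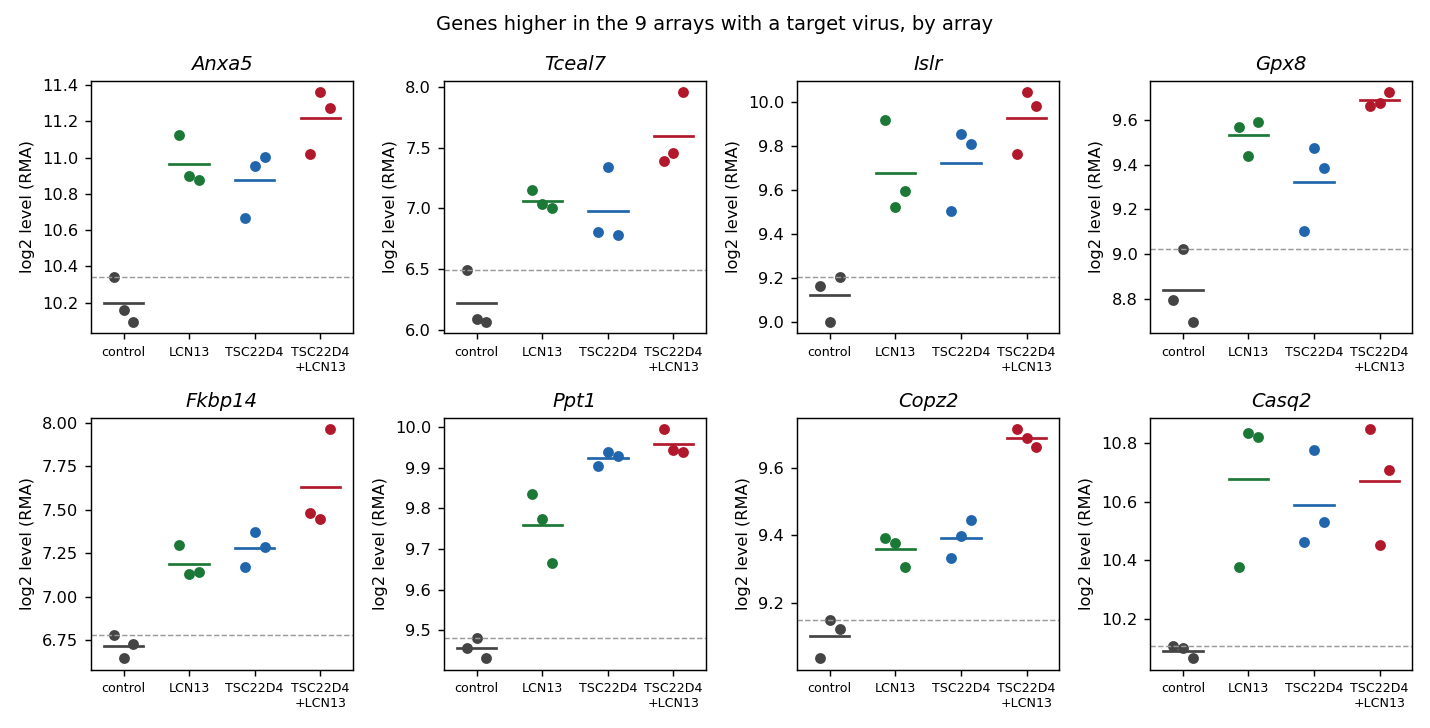
Log2 levels of 8 genes that rose, on each array, with 1 point per animal, a bar at each group mean and a dashed line at the highest control array. All 9 target virus arrays lay above the line, by 0.08 for Gpx8 and by 0.35 for Fkbp14.

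Few of the rises kept their call when connective tissue markers or control arrays were varied. With the tendon score as a covariate the median of the 123 was 0.28 and with the fibroblast score 0.26, all stayed above 0, and 4 and 8 were called. Their median SE was 0.052 without a covariate, and 0.077 with either score. The 123 were chosen as called rises on these same arrays, so that their sign was likely to hold. Whether connective tissue content accounts for the rises was not tested. With control animal 19 as the lone control the median was 0.30 and 1 was called. Without control animal 18, 19 or 20 in turn, 30, 45 and 21 of the 123 were called. Anxa5 measured 0.68 (adjusted p = 0.234) with the tendon score and 0.60 (adjusted p = 0.135) with the fibroblast score, and Ppt1 0.40 (adjusted p = 0.0288) and 0.42 (adjusted p = 0.0202). Some other rises shrank: Id2 measured 0.40 (adjusted p = 0.451) and 0.36 (adjusted p = 0.327), Srd5a3 0.43 (adjusted p = 0.342) and 0.28 (adjusted p = 0.036), and Erg28 0.54 (adjusted p = 0.408) and 0.37 (adjusted p = 0.304). Others lost their call without shrinking: Tceal7 measured 0.98 (limma adjusted p = 0.317) and 1.00 (adjusted p = 0.203), and Casq2 0.61 (adjusted p = 0.4) and 0.75 (adjusted p = 0.147).

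Whether the 9 pooled arrays held one level was tested among the 3 target groups, in contrasts that do not use the control arrays. A moderated F test called 507 probe sets (2.01%). With a red cell marker score as a covariate it called 3, and at an adjusted p of 0.01 it called 2. The red cell score differed between target groups: it was -0.35, -0.37 and -0.29 in LCN13 arrays, 0.25, 0.20 and -0.04 in TSC22D4 arrays and 0.71, 0.13 and 0.32 in TSC22D4+LCN13 arrays, against 0.01, -0.33 and -0.25 in controls. Of the 59 interferon list genes that fell, 2 were among them, one of them Oasl2 (adjusted p = 0.0458), which averaged 7.37 with LCN13, 6.97 with TSC22D4 and 6.66 with both. Of the 167 other falls 32 were called, and of the 123 rises 19. The count of 507 moved by over 1.5 times with any 1 target virus array left out, from 89 without LCN13 animal 21 to 879 without TSC22D4+LCN13 animal 30, and was 318 without control animal 20.

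The group with both target viruses, which received no control virus, was then set against the mean of the single-target groups. The contrast called 326 probe sets (1.29%), 82 higher (0.325%) and 244 lower (0.968%). Of the 59 interferon list falls 0 passed in limma (13 at an unadjusted p under 0.05), at a median single-target difference of -0.83 and a median further difference of 0.01, and 28 of 59 lay below 0. Of the 23 interferon list genes that fell by over 2-fold, 17 lay below 0, with a median further difference of -0.10, and 0 passed. The arrays with both viruses enter that 2-fold fall, so this lean may be partly selected. For Ifit1 the further difference was -0.40 (95% interval -0.74 to -0.07, adjusted p = 0.215), for Irf7 -0.37 (interval -0.75 to 0.01, adjusted p = 0.31), for Herc6 -0.10 (interval -0.25 to 0.04, adjusted p = 0.467) and for Rsad2 0.26 (interval -0.27 to 0.80, adjusted p = 0.639). For Oasl2 the further difference was -0.51 (limma adjusted p = 0.0544). The single-target groups differed from control by -2.68, -2.61, -1.76 and -1.81 for Ifit1, Irf7, Herc6 and Rsad2. These genes were among those named for large falls from control, so these values are selected. A difference in size between the steps was not tested.

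Other genes passed in this second step, though the number called was lower under other settings. The count of 326 over all probe sets was 59 with the red cell score as a covariate, 92 with array weights and 0 at an adjusted p of 0.01. Of the 167 other falls 25 passed, all further down, and of the 123 rises 15 passed, all further up. The 123 rises had a median of 0.26 with one target virus and 0.12 more with both, and 107 of 123 were above 0 in the second step. Copz2, Ggcx, Yif1b, Fiz1, Dhx29 and Sf3b2 were named for small p-values in the F test, which includes this contrast. Their values below are thus selected and not typical of the step. Copz2 rose by a further 0.31 (interval 0.24 to 0.39, adjusted p = 0.0118), Ggcx by 0.37 (interval 0.25 to 0.49, adjusted p = 0.0215), Yif1b by 0.23 (interval 0.16 to 0.30, adjusted p = 0.0215) and Actc1 by 0.87 (interval 0.54 to 1.21, adjusted p = 0.0316). The zinc finger gene Fiz1 differed by a further -0.28 (interval -0.34 to -0.22, adjusted p = 0.0115), the translation initiation helicase Dhx29 by -0.31 (interval -0.41 to -0.21, adjusted p = 0.0251) and the splicing factor Sf3b2 by -0.19 (interval -0.26 to -0.12, adjusted p = 0.0251). The count of 326 rests on few arrays: without TSC22D4+LCN13 animal 29, 30 or 32 it was 82, 545 and 50, without TSC22D4 animal 25, 26 or 27 it was 71, 81 and 83, without LCN13 animal 21 it was 203, and without control animal 19 or 20, which enter only the spread, 213 and 191.

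**Figure D5:**
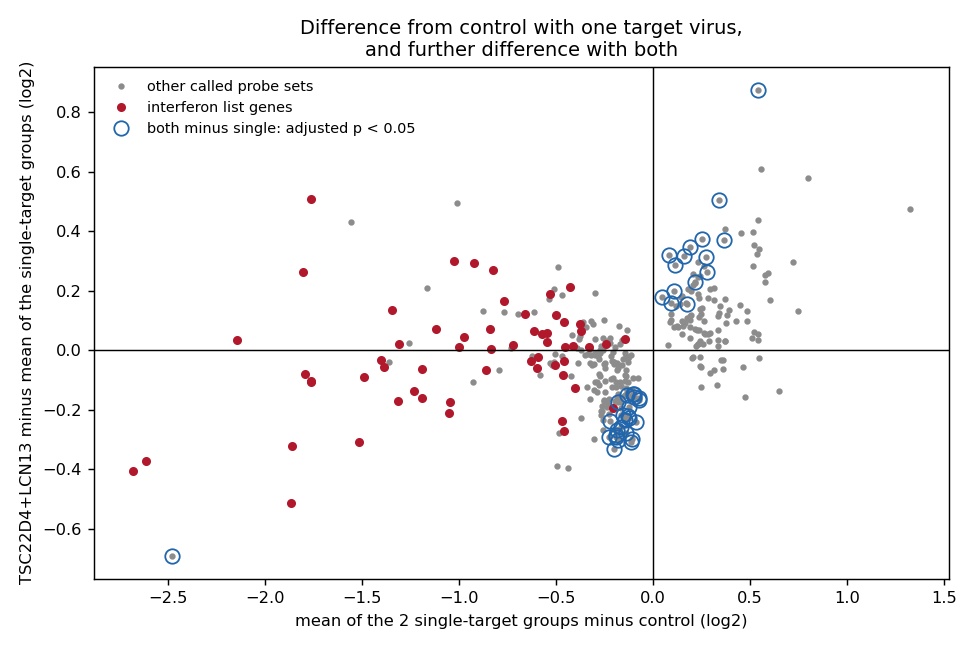
For the called probe sets, the mean difference of the 2 single-target groups from control (x axis, log2) against the further difference of the TSC22D4+LCN13 group (y axis, log2), with interferon list genes in red and blue rings where the second step passed an adjusted p of 0.05. The interferon list genes lie around 0 on the y axis and 0 of 59 carry a ring, while 25 other falls and 15 rises do.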

How the data were processed

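Total RNA of gastrocnemius from 12 mice had been hybridised to 1-colour Affymetrix arrays. The authors deposited log2 levels made with RMA, per the submitters' processing notes, which corrects background, makes array distributions equal and summarises probes. The RMA version, the probe set definitions and the build were not given in the sources used here. Sorted values differed between arrays by at most 0.00187. Precision is limited by the number of arrays. Of 25206 probe sets, 23185 had 1 gene symbol in the supplied annotation and 2021 (8.02%) did not, which stayed in the fit and were counted but not named.

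Groups came from the labels. A model of 4 group means was fitted over all 12 arrays in limma 3.58.1 (lmFit, eBayes; R 4.3.3) (8 residual and 1.69 prior degrees of freedom), with no filter. The contrast was the equal-weight mean of the 3 target groups minus control. The 2 further tests, an F test among the target groups and both viruses against the mean of the single ones, use control arrays only for the spread. Tests were two-sided, with Benjamini-Hochberg adjustment over all probe sets and a threshold of 0.05. No set test was run. The steps were tested on simulated data. Every array was from an animal with its own number, and no batch, slide or date was stated in the labels.

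Named genes were the targets, the 20 largest falls and 20 largest rises that were called and did not overlap, up to 4 called members of each list, and the called genes with extreme F test or contrast p-values or gaps. The text names a subset. The members and the 31 pathway and 15 marker lists were chosen with earlier results of these data known. Alternatives were probe sets with 1 symbol, those above the median level, trend and robust options, quantile normalization, median centring, array weights, 2 groups in place of 4, tendon, hepatocyte and red cell scores as covariates, a threshold of 0.01, a gap of 0.2, and each group or array left out. The fibroblast score and control animal 19 alone were added after seeing the data. Promoter sequences are from RefSeq, GRCm38.p6, with windows for 17452 of 23185 genes.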

Additional observations from a re-analysis of the deposited data

Results flagged for a closer look

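For 3 genes, 1 array stood far from the other target virus arrays, among 85 genes examined, where chance alone marks about 1 in 20. B2m measured 13.82 in TSC22D4+LCN13 animal 30, above the 13.41 to 13.49 of the other 8 arrays, and the same animal had the highest macrophage score (0.56). Fkbp14 measured 7.964 in TSC22D4+LCN13 animal 32, above the others, which lay between 7.13 and 7.48. Tppp3 measured 9.482 in TSC22D4 animal 25, below the others, which lay between 9.77 and 10.05 and just above the highest control at 9.47.

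The moderated F test of limma among the 3 target groups called 13 of the named genes. Copz2, Ggcx, Yif1b, Fiz1, Mylip, Sf3b2 and Dhx29 were named because their F test p-values were small, so that the count is partly set by that choice. Among genes that fell, Oasl2 (adjusted p = 0.0458) and the splicing factor Sf3b2 (adjusted p = 0.025), Fiz1 (adjusted p = 0.0122), Dhx29 (adjusted p = 0.0266) and Cdh15 (adjusted p = 0.0487) were lowest with both viruses. Fiz1 averaged 7.27 with LCN13, 7.24 with TSC22D4 and 6.97 with both, against 7.39 in control. Mylip (adjusted p = 0.027) was instead lowest with LCN13, at 8.59, against 8.92 with TSC22D4 and 9.04 with both. Among genes that rose, Copz2 (adjusted p = 0.0144), Yif1b (adjusted p = 0.0182), Ggcx (adjusted p = 0.025), Mrps18b (adjusted p = 0.0315), Timp1 (adjusted p = 0.027) and Actc1 (adjusted p = 0.0299) were highest with both viruses. Copz1 (adjusted p = 0.0425) averaged 9.87 with LCN13, close to control at 9.81, against 10.22 with TSC22D4 and 10.22 with both. Actc1 averaged 11.31 in control, 11.61 with LCN13, 12.10 with TSC22D4 and 12.73 with both.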

How the results depend on the processing

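Over 85 named genes and their settings, 1766 of 2293 values kept their direction and side of the threshold, 486 kept the direction and lost the call, 9 gained one and 32 changed sign, in 6 genes, with 0 of the 32 called in either fit. Alb (0.14) was -0.75, -1.44 and -0.41 with the tendon, fibroblast and hepatocyte scores, -0.64 without the LCN13 group, -1.15 with control animal 19 alone, and -0.75 to 0.79 with 1 array left out. Ifnar1 (0.0088) was -0.025, -0.11 and -0.016 with these scores, -0.0013 with array weights, -0.089 without the TSC22D4+LCN13 group, and -0.015 to 0.032 with 1 array left out. Obp2a (0.0022) was -0.020 and -0.0085 with the tendon and fibroblast scores, -0.00054 without the TSC22D4+LCN13 group, -0.032 with control animal 19 alone, and -0.0066 to 0.019 with 1 array left out. B2m (-0.015) was 0.071 with the red cell score, 0.015 without the TSC22D4 group, 0.023 with control animal 19 alone, and -0.055 to 0.017 with 1 array left out. Ifnar2 (0.16) was -0.17 with the fibroblast score and Cxcl10 (0.10) -0.0065 with the red cell score. No paired analysis was possible because animal numbers differ between groups. The 59 interferon list falls and the 28 falls over 2-fold ranged from 40 to 61 and from 24 to 34 with 1 array left out. Other counts moved more with 1 array left out: all called 89 (without control animal 20) to 408 (without TSC22D4+LCN13 animal 30), higher 21 to 157, lower 68 to 251, the F test 89 (without LCN13 animal 21) to 879, both against single 50 to 545, and probe sets apart 476 to 918 lower and 344 to 822 higher. With fewer arrays, non-overlap is easier to reach.

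Called, higher and lower counts were 128, 31 and 97 with 2 groups in place of 4, 30, 4 and 26 with the tendon score, 78, 29 and 49 with the fibroblast score (added), 32, 6 and 26 with control animal 19 alone (added), and 84, 14 and 70 at a threshold of 0.01. Without the TSC22D4 group they were 163, 51 and 112, and without TSC22D4+LCN13 128, 27 and 101. Array weights gave 557 called, 234 higher and 92 for both against single. The red cell score gave 532 called, 298 higher, 3 in the F test and 59 for both against single. Probe sets above the median level gave 201 higher. The F test called 334 and both against single 192 with trend and robust options, the F test 314 with the hepatocyte score, and 2 and 0 at 0.01. Probe sets apart numbered 63 lower and 18 higher with a gap of 0.2, 1246 and 853 without the LCN13 group, 795 and 677 without TSC22D4, 533 higher without TSC22D4+LCN13, and 2371 and 2298 with control animal 19 alone. The cause of these moves was not tested, and fits that leave out arrays also rest on fewer of them. Interferon list falls numbered 19 with the tendon score, 26 with the fibroblast score and 22 with control animal 19 alone. Probe sets near the floor of the array, such as those of Obp2a and Isg15, limit what can be read.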

Other observations

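The lists of oxidation, glycolysis and clock genes had 0 called members in the comparison of control with any target virus. Of all probe sets 1.38% were called, so that 0 calls in lists this short say little about these pathways. Of 20 genes of fatty acid oxidation and PPAR targets, 17 were above 0, with a median of 0.07, and 0 were called by limma (4 at an unadjusted p under 0.05). Of 33 oxidative phosphorylation genes the median was -0.00076 and 0 were called (7 at an unadjusted p under 0.05), and of 17 glycolysis and glycogen genes the median was -0.06 and 0 were called (6 at an unadjusted p under 0.05). Of 18 circadian clock genes 15 were below 0, with a median of -0.10 and 0 called (1 at an unadjusted p under 0.05). Alb, a liver transcript named after its values were seen, ranged from 7.01 to 11.57 over the 12 arrays, with 7.04, 10.12 and 9.32 in controls, 9.07, 11.57 and 10.94 in LCN13 arrays, 7.24, 8.38 and 7.40 in TSC22D4 arrays and 8.22, 10.87 and 7.01 in TSC22D4+LCN13 arrays.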
